A study of Mus musculus with 48 samples.

Results

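The Hox genes encode transcription factors that carry a homeodomain, a DNA-binding domain, and they lie in 4 clusters named a to d. All genes whose symbol is Hox, a cluster letter and a number were taken, which gave 39 of the 54532 gene identifiers in the count table. There were 11 members in the Hoxa cluster, 10 in Hoxb, 9 in Hoxc and 9 in Hoxd. Enough reads for a test were found for 25 members, 14 fell under the low-count filter, and 2 of those 14 had no count in any sample used.

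Genes of each cluster are numbered by their order along the chromosome, and in the embryo genes of low number are switched on early and toward the head while genes of high number follow later and toward the tail. Genes with the same number in different clusters are paralogs, copies of one ancestral gene. In the gut wall they are known chiefly from the mesoderm, which forms muscle and connective tissue, and from the nerve cells that settle in it, and they mark position along the tube.

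The samples were whole-thickness pieces of intestine from C57BL/6J mice, with no other genotype and no treatment. Duodenum, the first stretch of small intestine after the stomach, and ileum, the last stretch before the caecum, were both sampled on day 0, 2, 4, 6 and 8 of life and again in week 2, 3 and 4. Each region and age had 3 samples, and the mice were of both sexes, with the pups of a litter usually spread over several ages. The pups stayed with the dam to day 21 and then ate chow, and the labels call the housing standard germ-free. The labels do not say that the 3 samples of a group came from separate animals, or that a duodenum and an ileum sample with the same number came from one animal, so the p-values measure the spread between these samples.

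The day 6 samples numbered 3 were left out because their region markers went against their labels, which leaves 46 samples, 23 a region, and 2 samples a region at day 6. Pdx1, which encodes a regulator of duodenum and pancreas, had 0.115 CPM (the usual read count scaled to library size) in the library labelled duodenum day 6 number 3 and 14.5 CPM in the library labelled ileum day 6 number 3. In those libraries Hoxc8 and Hoxa9 went the same way as Pdx1. Both were among the genes seen to go against the labels, so they are no separate support for leaving the libraries out. Hoxc8 was at 5.85 CPM in the library labelled duodenum and at 0.170 CPM in the library labelled ileum, while Hoxa9 was at 0.0574 and 1.36 CPM. A further 5 libraries stood apart in Pdx1 or in Fabp6, an ileal bile acid binding protein gene, and were kept. These were duodenum day 0 number 1, week 2 number 2 and week 4 number 2, with Pdx1 at 2.41, 3.99 and 1.81 CPM against a duodenal median of 14.1, ileum day 0 number 2, with Pdx1 at 6.51 CPM against an ileal median of 0.275, and ileum week 4 number 1, with Fabp6 at 41.7 CPM against 1256 and 1936 in the other samples of that group. Total counts ran from 16824021 to 65042327 a sample, of which the members took 195 to 2561, so levels are low. A count of 0 allows a level of up to 0.0538 to 0.200 CPM, depending on the library, when 3 counts are taken as the limit, and such limits cover counting error only.

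How far reads tell paralogs apart depends on how far their sequences differ. Over whole transcripts, 1.0% of the 31-base words of Hoxa9 and 0.8% of those of Hoxb9 also occurred in another gene. The highest shares were those of Hoxd3 and Hoxd4, with 61.1% and 49.1% of their words shared, followed by Hoxa2 with 13.7%. The words of Hoxd3 and Hoxd4 were shared mainly with Gm28230, a gene annotated across both. Their values depend on how the authors' counting split such reads, and Gm28230 itself had 77 counts in the duodenum and 1020 in the ileum.

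Averaged over the 8 ages, most of the Hox genes with enough reads for a test were higher in the ileum than in the duodenum, and every member called toward the duodenum was a Hoxa gene. By edgeR's quasi-likelihood test with an adjusted p under 0.05, 21 of the 25 members tested were called, beside 62.1% of all 21986 genes tested. Of these, 16 were higher in the ileum, beside 31.9% of all genes, and 5 were higher in the duodenum, beside 30.2%. The median log2 difference, ileum minus duodenum, was 1.40 over the members and 0.08 over all genes. In whole tissue, fewer cells of a type and less RNA per cell cannot be told apart. Without the 5 libraries that stand apart, 22 members were called, 18 higher in the ileum and 4 in the duodenum.

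**Figure D1:**
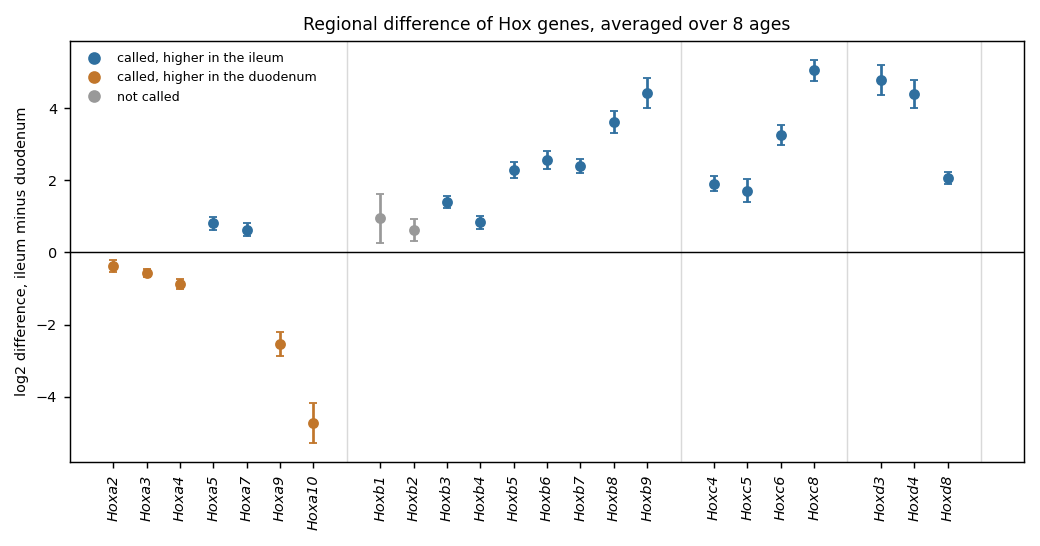
Log2 difference between ileum and duodenum averaged over 8 ages for 23 of the 25 Hox genes tested, ordered by cluster and number, with bars of 1 standard error and 46 samples in the fit. Hoxc13, whose error could not be estimated, is not drawn. In Hoxb the points run from 0.63 for Hoxb2 to 4.43 for Hoxb9, and Hoxa9 and Hoxa10 lie lowest, at -2.54 and -4.73.

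Within the Hoxb cluster on chromosome 11 the largest regional differences were those of the genes numbered 8 and 9. Hoxb1 and Hoxb2 were not called, with log2 differences of 0.95 ± 0.68 (SE) and 0.63 ± 0.31. Hoxb3 differed by 1.40, Hoxb4 by 0.84, Hoxb5 by 2.30, Hoxb6 by 2.56, Hoxb7 by 2.39, Hoxb8 by 3.62 and Hoxb9 by 4.43, and each of these 7 was called. The order by number was not complete, since Hoxb4 differed less than Hoxb3 and Hoxb7 less than Hoxb6. The median over the 9 Hoxb genes tested was 2.30.

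Hoxb9 lies at chr11:96271457-96276595 on the plus strand and acts, with its paralogs, in shaping the rib-bearing part of the trunk. Duodenal samples held between 0 and 0.319 CPM of Hoxb9, with a median of 0.0708, and ileal samples between 0.0583 and 16.6 CPM, with a median of 1.085. The mean was 29.1-fold higher in the ileum (log2 difference 4.43 ± 0.41, adjusted p 2.40e-11 by edgeR). That ratio of means is raised by a pair of ileum week 4 samples at 16.6 and 13.7 CPM. At day 0 the group means were 0.262 CPM in the duodenum and 0.329 CPM in the ileum, and Hoxb9 was not called at day 0 or day 2. Its ranges overlapped, with ileum week 4 number 1 and day 2 number 3 the lowest ileum samples.

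Hoxb8 (chr11:96281905-96285315, plus strand) lay between 0 and 0.527 CPM in duodenal samples, with a median of 0.0934, and between 0.119 and 6.95 CPM in ileal samples, with a median of 1.16. Its mean was 11.3-fold higher in the ileum. The ileum samples lay above all duodenum samples of the same age at 7 of the 8 ages. Hoxb7 (chr11:96286623-96290162, plus strand) lay between 0.1395 and 1.12 CPM in duodenal samples and between 0.408 and 4.56 CPM in ileal samples, with medians of 0.402 and 2.32. Its ileum samples were above the duodenum samples at all 8 ages, with a mean 4.84-fold higher.

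Hoxb6 (chr11:96292476-96301569, plus strand) lay between 0.0521 and 1.16 CPM in duodenal samples, with a median of 0.529, and between 0.524 and 11.8 CPM in ileal samples, with a median of 3.08. Hoxb5, a gene of enteric nerve precursors (chr11:96303336-96306121, plus strand), lay between 0.130 and 1.57 CPM in duodenal samples and between 0.350 and 7.82 CPM in ileal samples, with medians of 0.455 and 2.36. At 6 of the 8 ages the ileum samples of each of these genes lay above the duodenum samples. The median of Hoxb3 was 1.21 CPM among duodenal samples (0.531 to 3.17) and 3.09 among ileal ones (0.991 to 8.69). Hoxb4, known for expanding blood stem cells when supplied to them, had medians of 1.53 CPM (0.921 to 9.34) and 3.22 CPM (0.713 to 9.95), with wide overlap.

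In the 46 samples used, the regional ranges of Hoxc8 and Hoxc6 did not overlap. Hoxc8 (chr15:102990607-102994111, plus strand), known from the lower thorax and from the motor neurons of the forelimb, lay between 0 and 0.314 CPM in duodenal samples and between 0.911 and 8.82 CPM in ileal samples, with medians of 0.0502 and 2.27. Its mean was 31.01-fold higher in the ileum (log2 difference 5.06 ± 0.29, adjusted p 6.36e-17 by edgeR), and it had the smallest p among the members. Hoxc6 (chr15:102998257-103011881, plus strand) lay between 0 and 0.343 CPM in duodenal samples and between 0.421 and 2.22 CPM in ileal samples, with medians of 0.123 and 0.869, and a mean 7.87-fold higher. These 2 were the only members whose 23 ileum samples did not overlap the 23 duodenum samples, beside 0.1% of all genes tested, or 22 genes. This rests on leaving out the day 6 samples numbered 3, and it is a description, since Hoxc8 was itself among the genes that went against their labels. Hoxc6 was at 2.24 CPM in the library labelled duodenum and at 0.255 CPM in the library labelled ileum, so with both kept under their labels neither gene separates the regions. Ileum week 4 number 1, low in the Hoxb genes, was within the ileal range for both, at 0.991 CPM of Hoxc8 and 0.757 CPM of Hoxc6.

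The other Hoxc genes tested differed less. Hoxc4 had medians of 0.261 CPM in the duodenum (0.0246 to 0.774) and 0.869 in the ileum (0.317 to 2.26), a log2 difference of 1.91 ± 0.21. Hoxc5 differed by 1.72 ± 0.32 at lower levels. Hoxc13 had 15 counts in the duodenum and 23 in the ileum, and its averaged difference could not be estimated.

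All 3 Hoxd genes tested were higher in the ileum. Hoxd4 lay between 0 and 0.416 CPM in duodenal samples and between 0 and 3.70 CPM in ileal samples, with medians of 0.0251 and 1.17 and a mean 17.7-fold higher in the ileum. Hoxd3, a gene of the neck vertebrae, had 47 duodenal and 638 ileal counts, with a mean 17.0-fold higher. Hoxd3 and Hoxd4 lie within one stretch (chr2:74711927-74748442, plus strand) and both share words with Gm28230, so they are not separate evidence of each other. Hoxd8 (chr2:74704615-74707933, plus strand), which shares 0.1% of its words with other genes, lay between 0.0311 and 1.29 CPM in duodenal samples and between 0.334 and 2.65 CPM in ileal samples, with medians of 0.256 and 1.08.

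In the Hoxa cluster on chromosome 6, 5 of the 8 genes tested went the other way. Hoxa2, Hoxa3, Hoxa4, Hoxa9 and Hoxa10 were called higher in the duodenum, and Hoxa5 and Hoxa7 higher in the ileum. Hoxa3 (chr6:52169062-52213336, minus strand), which shapes the pharyngeal pouches, lay between 1.42 and 7.22 CPM in duodenal samples and between 1.05 and 4.84 CPM in ileal ones, with medians of 4.81 and 2.21 and a log2 difference of -0.58 ± 0.11. At 4 of the 8 ages all ileum samples of Hoxa3 lay below all duodenum samples. Hoxa4 differed by -0.88 ± 0.15 and Hoxa2, the selector gene of the second pharyngeal arch, by -0.37 ± 0.16. The Hoxa2 call (adjusted p 0.0375 by edgeR) was lost in 24 of 54 alternatives, most of them without 1 library, with an adjusted p of up to 0.0861. Reads of Hoxa3 could include those of antisense transcripts, since 1529 of its exon bases are overlapped from the other strand. The use of strand in counting is not given in the sources used here. The same limit holds for other members, among them Hoxb3 with 2250 such bases, Hoxb2 with 953, Hoxa7 with 586, Hoxd3 with 368 and Hoxd4 with 347.

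Hoxa9 and Hoxa10, which were singled out after their values were seen, had the largest differences toward the duodenum. Hoxa9 (chr6:52223100-52231089, minus strand), a gene of blood progenitors and of the trunk, lay between 0.0832 and 2.36 CPM in duodenal samples, with a median of 0.574, and between 0 and 0.601 CPM in ileal samples, with a median of 0.0950. Its mean was 6.03-fold higher in the duodenum (log2 difference -2.54 ± 0.34, adjusted p 3.43e-08 by edgeR). Hoxa10 (chr6:52231197-52240854, minus strand), known from the lumbar spine and the uterus, had counts in all 23 duodenum samples, 261 in sum, and in 3 ileum samples, 9 in sum. Duodenal samples held 0.0349 to 0.911 CPM with a median of 0.254, and the highest ileum sample was at 0.158 CPM. The ratio of mean CPM was 18.9-fold toward the duodenum, while the fitted log2 difference of -4.73 rests on groups with no count and depends on the model. Hoxa5 (chr6:52201754-52204587, minus strand), which acts in lung and stomach mesenchyme, had medians of 1.10 CPM in the duodenum (0.283 to 3.92) and 1.70 in the ileum (0.554 to 4.78), and Hoxa7 had medians of 0.507 and 0.869.

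**Figure D2:**
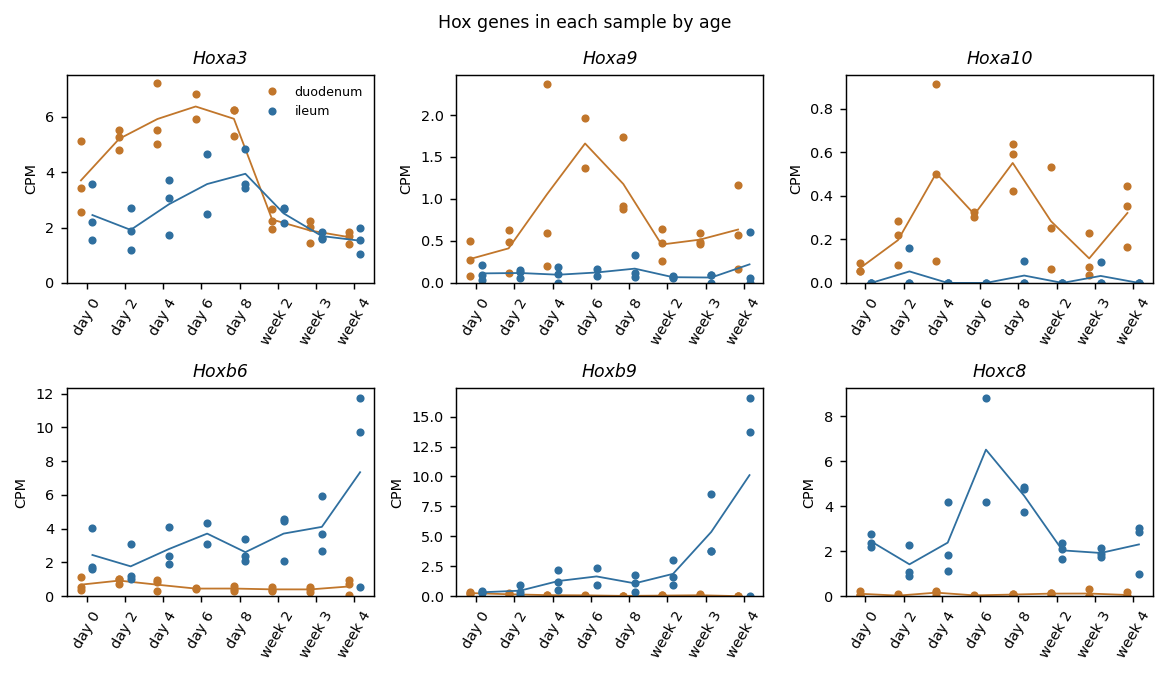
CPM of 6 Hox genes in each sample (points) by age, duodenum in orange and ileum in blue, with lines through the group means. Each panel has its own linear axis from 0. Hoxb9 climbs in the ileum to 13.7 and 16.6 CPM in a pair of week 4 samples while the remaining one is at 0.0583. In the ileum Hoxa10 reaches at most 0.158 CPM and Hoxa9 at most 0.601 CPM, in week 4 number 3.

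Per kilobase of exon sequence, which allows levels of different genes to be compared, the leading duodenal members were Hoxb4 at 0.778 CPM per kb, Hoxa3 at 0.669, Hoxa5 at 0.627 and Hoxa4 at 0.590. In the ileum the leading members were Hoxb6 at 1.81 CPM per kb, Hoxb7 at 1.49, Hoxb4 at 1.35 and Hoxb9 at 1.09. The ileal mean of Hoxb9 is carried by a pair of week 4 samples at 16.6 and 13.7 CPM, against a median of 1.085 CPM, so its place is not that of a typical ileum sample. Likewise the duodenal mean of Hoxb4 is raised by day 4 number 3 at 9.34 CPM, against a median of 1.53 CPM. Its first place is thus not that of a typical duodenum sample. Hoxa3, second in the duodenum, was 13th in the ileum. Summed over its genes, the Hoxb cluster had a median of 4.95 CPM a sample in the duodenum (2.76 to 16.4) and 16.7 in the ileum (5.13 to 63.6). The Hoxa cluster had 9.78 CPM (3.53 to 15.6) and 5.96 CPM (2.68 to 13.4), and the Hoxc cluster 0.593 and 4.80 CPM.

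The 14 members under the filter were mostly the genes of high number, which act at the tail end of the body. Hoxd12 and Hoxd13 had no count in the 46 samples, Hoxc12 had 1, Hoxa11 had 2, Hoxb13 and Hoxd1 had 3 each, Hoxa13 had 7 and Hoxd10 and Hoxd11 had 9 each. Hoxc10 had 22 counts and Hoxc11 had 35. Hoxc9 had 15 counts in the duodenum and 89 in the ileum, found in 7 and 21 samples. Hoxd9 had 27 and 55 counts and Hoxa6 had 26 and 48. Of the genes numbered 9 to 13, 16 in all, 4 were tested and 3 called, Hoxb9 higher in the ileum and Hoxa9 and Hoxa10 higher in the duodenum. Hoxa13, Hoxb13 and Hoxd13, which mark the hindgut, were thus at or near 0 in both regions.

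In the first days few members were called by edgeR's test at each age, and few of all genes were. At day 0, 5 of 25 members were called, beside 6.1% of all genes, and all 5 were higher in the ileum, beside 2.97% of all genes higher there and 3.14% higher in the duodenum. They were Hoxc8, Hoxd3, Hoxb7, Hoxa7 and Hoxc6. At day 2, 4 were called, beside 8.01% of all genes. Hoxc8 was the 1 higher in the ileum (all genes 4.05%), and Hoxa3, Hoxa4 and Hoxb2 were higher in the duodenum (all genes 3.97%). At day 4 there were 14 calls (all genes 26.6%), 11 of them higher in the ileum (11.6%) and 3 in the duodenum (15%). Day 6 had 17 calls (35.3%), with 15 higher in the ileum (17.8%) and 2 in the duodenum (17.5%), and day 8 had 17 (39.6%), with 15 (17.1%) and 2 (22.6%). Calls toward the ileum were the larger part at every age except day 2. Week 2 had 16 calls (22.4%), with 14 (10.6%) and 2 (11.8%), week 3 had 11 (14.2%), with 10 (7.28%) and 1 (6.9%), and week 4 had 15 (28.4%), with 14 (14.5%) and 1 (13.9%). Hoxc8 was called at all 8 ages. Hoxb7 and Hoxc6 were called at each age except day 2, and Hoxa9 and Hoxa10 were called higher in the duodenum at 5 ages each, none of them day 0 or day 2.

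Single libraries moved several of these counts. The day 0 count was 2 without duodenum number 2 or number 3 and 3 without ileum number 1 or number 3. The day 2 count was 2 without ileum number 3, the day 4 count was 8 without duodenum number 2, and the week 3 count was 7 without duodenum number 2. With the day 6 samples numbered 3 kept under their labels, edgeR called no member at day 6, and 2 members had an unadjusted p under 0.05.

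**Figure D3:**
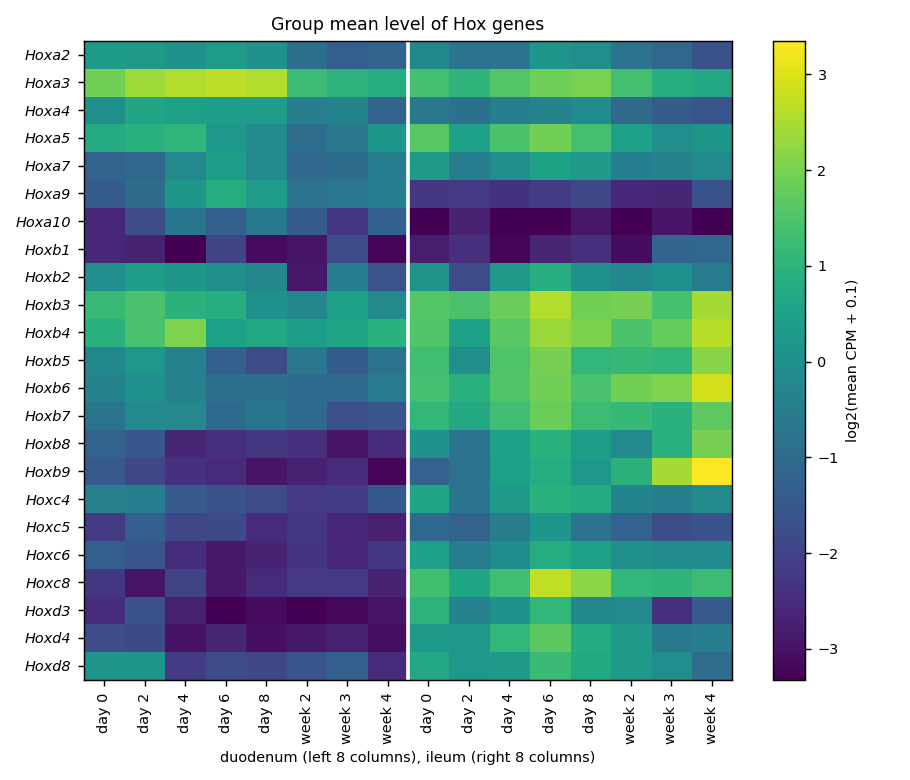
Mean level of 23 Hox genes in the 16 groups, as log2 of the mean CPM plus 0.1, with the duodenum in the left 8 columns and the ileum in the right 8. Groups hold 3 samples, or 2 at day 6. The row of Hoxb9 is dark in the duodenum and brightens in the ileum with age, to a mean of 10.1 CPM at week 4.

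Between day 0 and week 4 the Hox genes were called no more often than all genes. Those called all fell in the duodenum, while in the ileum some rose and some fell. By edgeR's test over the 8 ages, 17 of 25 members changed in the duodenum, beside 67.4% of all genes, and 12 in the ileum, beside 58.7%. Between day 0 and week 4 in the duodenum 7 members were called and all 7 fell, beside 40.5% of all genes called and 20.1% falling. In the ileum 9 were called, beside 41.9% of all genes, with 3 rising (all genes 21.5%) and 6 falling (all genes 20.4%). The median log2 change of the members was -1.26 in the duodenum against -0.02 for all genes, and -0.45 in the ileum against 0.08. With a group at 0 set to 3 counts the members' medians were -1.17 and -0.55, over 25 and 24 members, since Hoxa10 had no count in the ileum at either age. Without the 5 libraries that stand apart, 1 member rose and 6 fell in the duodenum, and 6 rose and 2 fell in the ileum. Without ileum week 4 number 1 alone, 8 rose and 4 fell in the ileum. Leaving out duodenum day 0 number 3 lowered the duodenal count to 4, and leaving out ileum week 4 number 3 lowered the ileal count to 5.

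Cell type markers changed between day 0 and week 4 as well. Of all genes tested, 20.4% rose and 20.1% fell in the duodenum, and 21.5% rose and 20.4% fell in the ileum. In the duodenum 3 of 6 enteric neuron markers, 2 of 4 glial markers and 2 of 6 fibroblast markers fell by edgeR's test, with medians over each list of -2.22, -1.37 and -0.95 on the log2 scale. Pdgfra, a receptor gene of fibroblasts, fell there by 5.28 and Ret, a receptor gene of enteric neurons, by 2.50. Of the other lists 2 of 8 smooth muscle, 5 of 6 epithelial and all 3 leukocyte markers rose in the duodenum. In the ileum 2 of 6 neuron markers fell, 1 fibroblast marker rose and 1, Pdgfra, fell by 3.78, 1 of 4 glial markers rose, 5 of 6 epithelial markers rose and 1 fell, and all 3 leukocyte markers rose, while the smooth muscle median was 0.61. Summed neuron markers were at 33.35 to 43.05 CPM in the duodenum at day 0 and at 5.08 to 11.8 CPM at week 4, and at 49.6 to 75.35 and 12.96 to 13.62 CPM in the ileum. Summed fibroblast markers were at 103.7 to 187.7 and then 21.95 to 80.4 CPM in the duodenum, without overlap, and at 211.3 to 305.8 and 100.8 to 223.8 CPM in the ileum. No marker of these 6 lists was at 0 in every sample of one of these groups. The part of these markers in the changes of the Hox genes with age was not tested.

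The 3 members that rose in the ileum, Hoxb6, Hoxb8 and Hoxb9, lie close together in the Hoxb cluster, and Hoxb7, between Hoxb6 and Hoxb8, was not called (log2 change 0.65 ± 0.50). Hoxb9 was at 0.333, 0.251 and 0.404 CPM in the ileum samples of day 0 and at 0.0583, 16.6 and 13.7 CPM in those of week 4. The week 4 samples numbered 2 and 3 thus lay far above all day 0 samples, while number 1 lay below them. The log2 change was 4.91 ± 0.95 (adjusted p 6.17e-05 by edgeR), and 5.44 without week 4 number 1. The call was lost when the model held the compared groups alone (adjusted p 0.0515 by edgeR). At week 3 the ileum samples were at 3.76, 8.54 and 3.81 CPM of Hoxb9, all above those of day 0.

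Hoxb8 was at 0.813, 0.877 and 1.16 CPM in the ileum at day 0 and at 0.291, 6.95 and 4.34 CPM at week 4, a log2 change of 2.02 ± 0.67 (adjusted p 0.0147 by edgeR). Hoxb6 went from 4.03, 1.71 and 1.59 CPM to 0.524, 11.8 and 9.75 CPM, a change of 1.60 ± 0.63 (adjusted p 0.0395 by edgeR). In both, week 4 number 1 was again the lowest sample and the groups overlapped. Without it the changes were 2.52 and 2.10. The Hoxb8 call was lost without ileum week 4 number 2 or day 0 number 1, and the Hoxb6 call without ileum day 0 number 2 or 3 or week 4 number 2 or 3, with adjusted p of up to 0.164 and 0.243 over their alternatives.

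Hoxd8 fell in both regions. Duodenum samples held 1.11, 0.774 and 1.15 CPM at day 0 and 0.0521, 0.111 and 0.0707 CPM at week 4, with no overlap and a log2 change of -3.65 ± 0.54 (adjusted p 7.81e-07 by edgeR). Day 2 samples still held 0.828 to 1.29 CPM, and from day 4 on no duodenum sample exceeded 0.334 CPM. Ileum samples held 0.776, 1.46 and 2.38 CPM at day 0 and 0.350, 0.590 and 0.334 CPM at week 4, a change of -1.81 ± 0.46, again with no overlap. Hoxd3 fell in the ileum from 1.15, 2.84 and 1.66 CPM to 0.291, 0.341 and 0.200 CPM, a change of -2.70 ± 0.76 that was lost with the day 6 samples numbered 3 kept (adjusted p 0.0531 by edgeR).

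The Hoxa genes of low number fell too. In the duodenum Hoxa3 went from 2.55, 3.42 and 5.14 CPM at day 0 to 1.85, 1.42 and 1.70 CPM at week 4, a log2 change of -1.17 ± 0.31. It had first climbed to 5.30 to 6.24 CPM at day 8 before standing at 1.95 to 2.68 CPM at week 2, with no overlap between those ages. Hoxa2 fell in the duodenum by 1.73 on the log2 scale and in the ileum by 1.65, and Hoxa4 by 1.43 and 1.19. Hoxa5 fell in the ileum by 1.45. The duodenal calls of Hoxa3 and Hoxa4 were lost without day 0 number 3 (adjusted p 0.0594 and 0.0969 by edgeR). The ileal calls of Hoxa4 and Hoxa5 were lost without day 0 number 3, week 4 number 1 or week 4 number 3. Leaving out the 5 libraries that stand apart ended the ileal calls of Hoxa2, Hoxa4 and Hoxa5, with Hoxa2 at an adjusted p of 0.0854 by edgeR.

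Hoxb9, Hoxb3 and Hoxb2 fell in the duodenum as well. Hoxb9 in the duodenum was at 0.194, 0.319 and 0.273 CPM at day 0, 29 counts in sum, and had 1 count in the 3 week 4 samples together. The pooled level was 26.4-fold higher at day 0, with an exact 95% counting interval of 4.37 to 1076, and the fall was called (adjusted p 0.0363 by edgeR), although not without day 0 number 2 or 3 or any one of the week 4 samples (adjusted p of up to 0.120). Hoxb3 in the duodenum went from 2.08, 2.10 and 2.44 CPM to 0.782, 1.11 and 0.531 CPM, a log2 change of -1.44 ± 0.46 with no overlap. Of its 15 alternatives 1 lost the call, that without week 4 number 3, where the change of Hoxb3 was -1.19 (adjusted p 0.0697 by edgeR). In the ileum Hoxb3 was at 2.85, 2.71 and 3.18 CPM at day 0 and at 0.991, 8.69 and 6.41 CPM at week 4, with a log2 change of 0.89 ± 0.43 that was not called. Hoxb2 fell in the duodenum by 2.06, from 0.499, 0.0911 and 2.02 CPM to 0.104, 0.0834 and 0.495 CPM, groups that overlapped, and the call (adjusted p 0.0480 by edgeR) was lost in 8 of 15 alternatives, among them those without day 0 number 3 or week 4 number 1 or 2.

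The change of the regional difference with age was tested directly. Over all ages, the interaction of region and age was called by edgeR for 9 members, beside 22.4% of all genes. These were Hoxb2, Hoxb3, Hoxb4, Hoxb5, Hoxb8, Hoxb9, Hoxc4, Hoxd3 and Hoxd8, so 6 of the 9 were Hoxb genes and none was a Hoxa gene. Hoxa3 was close to a call (adjusted p 0.0644 by edgeR). It was called when samples sharing a number were joined as a block (adjusted p 0.0415 by edgeR). For the change from day 0 to week 4 alone 3 members were called, namely Hoxb9, Hoxb3 and Hoxb8, beside 5.99% of all genes in either direction and 3.14% in theirs, with log2 changes more positive in the ileum by 9.19 ± 1.77, 2.33 ± 0.63 and 4.06 ± 1.12. The value for Hoxb9 rests on the single duodenal count at week 4 and is no measure of size. Its adjusted p was 0.00147 by edgeR, and 0.0676 when the model held the compared groups alone. Without ileum week 4 number 1 the count was 6, and it was 1 without ileum week 4 number 2 or 3, ileum day 0 number 1 or duodenum week 4 number 1. Hoxc8 was not called in either of these tests.

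Markers of the gut wall moved with the regional difference. Over all genes tested, 31.9% were called higher and 30.2% lower in the ileum. Of 20 marker genes of smooth muscle, fibroblasts and enteric neurons, 18 were called higher in the ileum, with a median log2 difference of 1.91 and a largest of 2.59, for Myh11, the heavy chain of smooth muscle myosin. All 6 fibroblast markers were higher, by 1.97 to 2.50, 7 of 8 smooth muscle markers, Smtn being lower by 0.30, and 5 of 6 neuronal markers. Summed marker levels ran from 13.7 to 62.2 CPM in the duodenum and 18.2 to 215.9 CPM in the ileum for smooth muscle, from 6.08 to 187.7 and 81.2 to 685.8 CPM for fibroblasts, and from 5.08 to 56.8 and 12.96 to 120.8 CPM for neurons. No gene of these lists was at 0 in a region. Of the 4 glial markers 2 were called higher and S100b lower in the ileum, and of 6 epithelial markers 1 was higher and 2 were lower, all within 0.41. Of 6 pancreatic acinar markers 5 were called lower in the ileum, with sums of 4.46 to 433.8 CPM among duodenal and 1.89 to 27.4 CPM among ileal samples.

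Beside these markers, 6 members had a larger difference toward the ileum than Myh11, namely Hoxb8, Hoxb9, Hoxc6, Hoxc8, Hoxd3 and Hoxd4. Another 10 called members had a smaller one, and the 5 called toward the duodenum differed in the direction opposite to the markers. The part of these cell types in the results was not tested. At week 4 the marker levels also differed within the ileum: the sample numbered 1 had the lowest summed smooth muscle level, 42.7 CPM, of a group that reached 215.9 CPM, and the lowest fibroblast level, 100.8 of up to 223.8 CPM, while its neuronal markers were in the range of the group (12.96 to 13.62 CPM). Leukocyte markers were at 97.1 to 271.3 CPM in the ileum at week 4, against 48.4 to 56.7 CPM in the duodenum. Of the colon and caecum markers Car1 and Car4 were not called, and Hoxb13 was at 0 in the ileum.

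**Figure D4:**
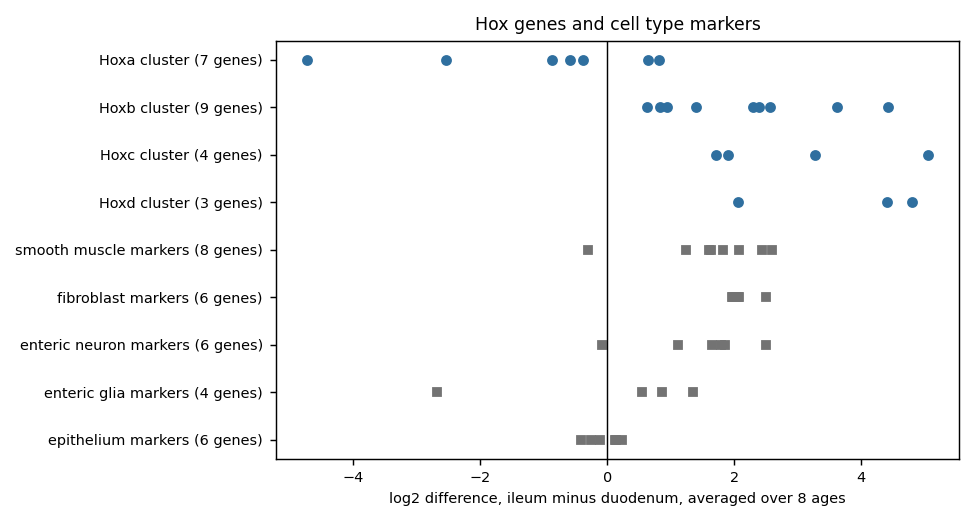
Log2 difference between ileum and duodenum averaged over 8 ages for Hox genes by cluster (blue circles) and for cell type marker genes by list (grey squares), 1 point a gene, for 23 of the 25 members tested. Fibroblast markers sit between 1.97 and 2.50, while the Hox genes spread from -4.73 to 5.06.

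Proteins that bind DNA together with Hox proteins, and genes set upstream of them, were compared in lists chosen by function. Over all genes tested, 31.9% were called higher and 30.2% lower in the ileum. Of 9 genes of the Pbx, Meis and Pknox families, whose proteins pair with Hox proteins on DNA, 3 were called higher and 4 lower there. Meis3 was higher by 1.76 ± 0.11 on the log2 scale, with a duodenal median of 2.50 CPM and an ileal one of 10.4 CPM, Meis1 was higher by 1.48 ± 0.19, and Pbx3 was lower by 1.04 ± 0.09. Of 12 Cdx and retinoic acid genes, which include known activators of Hox clusters, 10 were tested, and 5 were called higher and 1 lower in the ileum. Cdx1 and Cdx2, the intestinal Cdx factors, were not called, with log2 differences of -0.14 ± 0.06 and -0.06 ± 0.06. Rarg, a retinoic acid receptor gene, was higher by 1.16, Cyp26b1, which breaks retinoic acid down, by 1.45 and Aldh1a2, which makes it in mesenchyme, by 1.14, while Aldh1a1, which also makes it, was lower by 1.29.

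From day 0 to week 4, 3 of the 9 Pbx, Meis and Pknox genes rose and 3 fell in the duodenum, and 3 rose and 1 fell in the ileum. Of all genes tested, 20.4% rose and 20.1% fell in the duodenum, and 21.5% rose and 20.4% fell in the ileum. Meis3 fell in both regions, by 1.75 in the duodenum and 1.42 in the ileum, and Rarg fell by 1.82 and 1.20. Meis1 and Pknox2 fell in the duodenum, by 1.80 and 4.07, and Pbx4 rose in both regions, by 2.51 and 3.22. The duodenal median of Pknox2 was 0.0698 CPM, near the level that a count of 0 allows, so the size of its fall is uncertain. Of the 10 Cdx and retinoic acid genes tested, 3 rose and 2 fell in the duodenum, and 2 rose and 3 fell in the ileum. Aldh1a1 rose by 2.47 and 1.86 and Aldh1a3 fell by 3.46 and 1.90. In the ileum Cyp26b1 fell by 1.26 and Gdf11, which times the activation of trunk Hox genes in the embryo, rose by 1.47. Whether these changes differed between the regions was not tested. Polycomb and trithorax genes hold Hox clusters silent or active. Of 14 such genes, 2 were called higher and 7 lower in the ileum, between -0.50 and 0.14. These 9 calls stand beside 62.1% of all genes called by region. From day 0 to week 4, 2 of the 14 rose and 1 fell in the duodenum, Rnf2 by 1.09, and 1 rose and 3 fell in the ileum.

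Non-coding RNAs of the clusters were rare. Of 9 such genes 5 were tested and 3 called, all higher in the ileum: Haglr, which lies in the Hoxd cluster, by 4.00 ± 0.42, Hoxd3os1 by 2.67 ± 0.34 and Hoxb5os by 2.32 ± 0.43. Of all genes tested, 31.9% were called higher in the ileum. The median of Haglr was 0 CPM among duodenal and 0.237 CPM among ileal samples, and it fell in the ileum from day 0 to week 4 by 2.80. Hotairm1 and Hoxd3os1 fell in the duodenum, by 2.95 and 2.22. Exons of Haglr and Hoxd3os1 overlap those of Hoxd3 from the other strand, and exons of Hoxb5os those of Hoxb5, so reads may be shared. Hottip, at the high-number end of Hoxa, had no count. A pair of neighbours was picked after values were seen. Gm53, a long non-coding RNA gene between Hoxb13 and Hoxb9, had 60 duodenal and 1341 ileal counts, with a highest sample of 13.6 CPM. Hoxaas3, antisense within Hoxa, went the other way with 1011 and 342 counts.

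The promoters of all members that had a window were searched for letters of known binding motifs. RefSeq windows of 300 bases on GRCm38.p6 were found for 22 of the 39 members. The Cdx motif was searched as TTTATNG and the paired Hox and Pbx motif as TGATNNAT, both on either strand. The first was in 10.9% of all 32851 promoter windows and in those of 2 members, Hoxb8 and Hoxd4, with 3 matches each. The second was in 8.85% of all windows and in those of Hoxa2, Hoxb1, Hoxb8 and Hoxd11. Windows without a match of either motif belonged to members called in both directions. Of these, Hoxd3, Hoxd8, Hoxb4, Hoxc4, Hoxa5 and Hoxa7 were higher in the ileum, and Hoxa3, Hoxa9 and Hoxa10 in the duodenum. The windows of Hoxb8 (chr11:96281655-96281954, plus strand) and Hoxd4 (chr2:74721728-74722027, plus strand), both higher in the ileum, and of Hoxa9 (chr6:52227321-52227620, minus strand), higher in the duodenum and without a match, are given 5′ to 3′ with the matches in capitals.
Hoxb8: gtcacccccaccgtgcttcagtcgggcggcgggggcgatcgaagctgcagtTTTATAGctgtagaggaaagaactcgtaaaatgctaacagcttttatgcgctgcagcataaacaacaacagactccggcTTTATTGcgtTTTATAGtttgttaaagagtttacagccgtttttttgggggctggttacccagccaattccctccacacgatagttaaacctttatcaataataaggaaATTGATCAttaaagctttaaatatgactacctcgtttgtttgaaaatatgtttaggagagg
Hoxd4: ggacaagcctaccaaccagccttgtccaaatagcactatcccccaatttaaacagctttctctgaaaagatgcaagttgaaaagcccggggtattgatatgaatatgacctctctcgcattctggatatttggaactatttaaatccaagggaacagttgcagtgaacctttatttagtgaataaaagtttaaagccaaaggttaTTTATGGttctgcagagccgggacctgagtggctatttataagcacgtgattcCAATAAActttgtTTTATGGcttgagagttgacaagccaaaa
Hoxa9: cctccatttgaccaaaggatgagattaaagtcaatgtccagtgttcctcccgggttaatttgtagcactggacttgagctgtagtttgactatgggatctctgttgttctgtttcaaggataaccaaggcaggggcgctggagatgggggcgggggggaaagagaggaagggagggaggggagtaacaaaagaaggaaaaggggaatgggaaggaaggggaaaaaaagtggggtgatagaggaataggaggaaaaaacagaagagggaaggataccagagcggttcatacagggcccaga
In the Hoxb8 window the capitals mark 3 matches of the first motif and 1 of the second, in Hoxd4 3 of the first. Such matches describe the letters of these windows, and no binding was measured.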

How the data were processed

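Whole-thickness duodenum and ileum of mice at 8 ages gave 48 samples of total RNA, of which 46 were used. The authors deposited estimated counts per gene, already whole numbers, in a table named for tximport. The authors' normalized signal, for 40 of the samples in 2 tables, equalled the count divided by a median-of-ratios factor and was used here for gene symbols (51106 identifiers have one) and that check. The submitters' processing notes name STAR 2.6.1d, Salmon 0.14.2, DESeq2 1.30.1 and the build mm10. The annotation release and use of strand are not given in the sources used here. Coordinates and exon lengths came from GENCODE M21 on GRCm38, which holds 54409 of the 54532 identifiers.

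Tests used edgeR 4.0.16 under R 4.3.3. Genes kept by filterByExpr on 16 groups (21986) were scaled by TMM, and a robust quasi-likelihood model with one mean per group was fitted to all samples. Each test was adjusted on its own (Benjamini-Hochberg, over all genes), and an adjusted p under 0.05 is a call. Levels are TMM-scaled CPM. The procedure was also run on simulated counts in which few genes differed, unlike these data, so that run does not gauge the calls made here. Values per sample are given for called members with a mean of at least 1 CPM in a region, and over ages for the members with the smallest p. Of the other lists, called genes with a log2 difference of at least 1 are named. Alternatives covered scaling, filters, DESeq2 1.42.0, the samples fitted, a replicate block and leaving out each sample, and, chosen after the data were seen, leaving out 5 libraries that stand apart. The members and lists were chosen with earlier results of these data known. Single values of 1 member and 1 marker gene are not reported here.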

Additional observations from a re-analysis of the deposited data

Results flagged for a closer look

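The regional difference changed with age for 9 Hox genes by edgeR's interaction test over the 8 ages. The adjusted p was 0.000516 for Hoxd8, 0.00410 for Hoxb9, 0.00754 for Hoxb3, 0.0115 for Hoxb8, 0.0132 for Hoxb5, 0.0215 for Hoxd3, 0.0216 for Hoxb2, 0.0221 for Hoxc4 and 0.0271 for Hoxb4. With the day 6 samples numbered 3 kept under their labels, Hoxb9 alone stayed called. The calls of Hoxb2 and Hoxc4 were lost without ileum day 2 number 1 or 3, and that of Hoxb4 without ileum day 2 number 3 or duodenum day 6 number 2. Hoxd8 had fallen in the duodenum by day 4 while the ileum kept it, with groups of 0.0311 to 0.256 CPM and 0.577 to 1.73 CPM at that age.

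The change from day 0 to week 4 differed between the regions for 3 Hox genes by the same tool, with an adjusted p of 0.00147 for Hoxb9, 0.0214 for Hoxb3 and 0.0247 for Hoxb8. In each, ileum week 4 numbers 2 and 3 lay above all day 0 ileum samples and number 1 below them.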

How the results depend on the processing

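Of 78 single-member results, 39 stayed called in every alternative. The age and interaction tests over the 8 ages give no direction, and none of the other results changed sign. Over 2847 recomputed values, 206 lost the call. In the regional average, 20 of 21 called members stayed called in all 54 alternatives, Hoxa2 being the exception, and the count ran from 19 to 23. Keeping the day 6 samples numbered 3 under their labels gave 3 calls at day 0, 0 at day 6, 7 at week 3, 6 for age in the ileum, 5 for week 4 against day 0 in the ileum, and 1 each in the 2 interaction tests; at day 6 edgeR left 2 members with an unadjusted p under 0.05, and the other settings gave 12 to 18 calls. When the model held the compared groups alone, the counts were 8 at day 2, 4 at day 4, 6 at week 4, 3 for week 4 against day 0 in the ileum and 0 by edgeR for its difference from the duodenum, where 6 had an unadjusted p under 0.05. DESeq2 called 14 members in the interaction over ages. Leaving out single samples gave 2 to 5 calls at day 0, 2 to 4 at day 2, 8 to 17 at day 4, 7 to 10 at week 3, 4 to 8 for week 4 against day 0 in the duodenum, 5 to 12 in the ileum and 1 to 6 for the difference of these changes. The replicate block joins samples that share a number. Over 23 such pairs, 16 had deviations from their group means correlated over 0.1. The median r was 0.159, against -0.1105 for samples of different numbers, and the lowest was -0.363. These values do not settle whether the numbers mark pairing, so the block is given as an alternative. The block gave 8 calls at day 0, 21 in the regional average, 9 in the interaction over ages, 7 of them shared with the fit without it, and 7 for week 4 against day 0 in the ileum. In the interaction the block ended the calls of Hoxb2 and Hoxd3 (adjusted p 0.0542 and 0.0684 by edgeR) and added those of Hoxa3 and Hoxb6 (0.0415 and 0.00807). Low counts limit the depth of these results: members took at most 2561 counts a sample.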
